A study of Mus musculus with 5 samples.

Results

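The cardiac macrophage and myeloid genes are 36 genes, chosen by symbol from a fixed list and matched to the Ensembl identifiers of the deposited count table, which holds 49671 genes. They comprise 12 genes of resident macrophages, 14 genes found across myeloid cells or all leukocytes, 4 monocyte genes, 2 neutrophil genes and 4 genes of class II antigen presentation. RNA was sequenced from whole hearts of C57BL6/J mice at postnatal day 2, from CharmeWT animals and from CharmeKO animals, which carry an inserted PolyA signal in Charme, a cardiomyocyte long noncoding RNA gene. Littermates were pooled by genotype into 3 CharmeWT pools of 9 hearts and 2 CharmeKO pools of 3 hearts, and an effect of pool size cannot be told apart from one of genotype. No treatment was given and no cells were sorted. Counts of a myeloid gene in such bulk RNA come from all cells of the heart together, and fewer cells of a type and less RNA per cell cannot be told apart.

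Macrophages are the main leukocytes of the neonatal heart, where they clear dying cells, prune matrix and vessels, and take part in repair. Much of the resident population derives from embryonic precursors, depends on the growth factor receptor Csf1r and carries the scavenger receptors Mrc1 and Cd163, while Ccr2 and Ly6c2 mark monocytes that arrive from the blood. Class II molecules, which display peptides to helper T cells, are sparse on cardiac macrophages at birth and become frequent later.

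The promoter windows of 5 members are shown. Mrc1 and F13a1 were called higher in CharmeKO hearts, and Cx3cr1 was lower but not called by the quasi-likelihood test. The last pair, H2-Aa and H2-Eb1, share a motif of class II promoters. Each window runs from 250 bases before to 50 bases after a RefSeq start site in GRCm38.p6, is written 5′ to 3′ on the strand of the gene, and has motif matches in capitals. In Mrc1 (chr2:14229164-14229463, plus strand) the capitals mark 3 matches to GAGGAA, the core of the motif of PU.1, the myeloid master regulator that Spi1 encodes; all 3 read on the opposite strand. In F13a1 (chr13:37049164-37049463, minus strand, the second of its RefSeq windows) they mark the longer PU.1 motif GAGGAAGT. Cx3cr1 (chr9:120068247-120068546, minus strand) held no match to GAGGAA. In H2-Aa (chr17:34287774-34288073, minus strand) and H2-Eb1 (chr17:34305617-34305916, plus strand) the capitals mark CTGATTGG, the Y box of class II promoters.
Mrc1: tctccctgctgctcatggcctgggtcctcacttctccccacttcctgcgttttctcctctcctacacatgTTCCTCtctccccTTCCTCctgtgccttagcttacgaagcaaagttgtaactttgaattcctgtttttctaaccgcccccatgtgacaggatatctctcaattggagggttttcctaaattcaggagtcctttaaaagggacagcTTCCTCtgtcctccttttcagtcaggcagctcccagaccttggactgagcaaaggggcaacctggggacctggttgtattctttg
F13a1: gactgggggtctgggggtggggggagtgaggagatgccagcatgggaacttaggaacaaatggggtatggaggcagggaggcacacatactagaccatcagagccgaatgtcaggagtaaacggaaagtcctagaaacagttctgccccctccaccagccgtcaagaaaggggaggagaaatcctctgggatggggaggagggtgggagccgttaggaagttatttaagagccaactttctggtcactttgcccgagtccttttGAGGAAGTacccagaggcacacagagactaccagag
Cx3cr1: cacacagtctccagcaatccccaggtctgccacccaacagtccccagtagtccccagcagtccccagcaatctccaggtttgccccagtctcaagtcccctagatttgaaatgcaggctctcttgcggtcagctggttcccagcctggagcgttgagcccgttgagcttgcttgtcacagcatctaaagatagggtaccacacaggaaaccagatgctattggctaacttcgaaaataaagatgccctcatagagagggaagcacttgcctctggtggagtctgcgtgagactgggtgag
H2-Aa: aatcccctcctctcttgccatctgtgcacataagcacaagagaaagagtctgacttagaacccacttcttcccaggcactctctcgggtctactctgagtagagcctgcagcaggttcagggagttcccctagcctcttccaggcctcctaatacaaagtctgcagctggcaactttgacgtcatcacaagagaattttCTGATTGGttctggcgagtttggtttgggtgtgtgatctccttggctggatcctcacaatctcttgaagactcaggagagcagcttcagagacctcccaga
H2-Eb1: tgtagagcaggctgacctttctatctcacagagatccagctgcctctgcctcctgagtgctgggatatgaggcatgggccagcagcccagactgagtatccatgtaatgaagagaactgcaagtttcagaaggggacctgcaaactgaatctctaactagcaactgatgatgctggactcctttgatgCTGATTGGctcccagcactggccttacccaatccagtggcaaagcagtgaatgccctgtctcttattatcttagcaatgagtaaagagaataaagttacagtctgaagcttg

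Members on chromosome 18 (Csf1r, Cd14 and Cd74) were left out of the motif search. RefSeq windows of 27 of the 36 members were used, and 6 motifs were searched in them on both strands. Some of these overlap one another: GAGGAA and GGAAGT both lie within GAGGAAGT, GGAAGT also lies within AGGAAGTG, and GATTGG lies within CTGATTGG. GAGGAAGT was present in 8 of the 31 member windows (25.8%), belonging to C1qc, Cd53, Ctss, F13a1, Ly6c2, Pf4 and S100a8, and in 3.20% of all 32851 windows of the same length. GAGGAA was present in 61.3% of member windows and 28.3% of all windows, GGAAGT in 54.8% and 23.8%, and AGGAAGTG in 19.4% and 4.07%. The Y box letters CTGATTGG were present in 6.45% of member windows, those of H2-Aa and H2-Eb1, against 4.10% of all windows, and GATTGG in 19.4% against 16.1%. These matches describe letters only, and factor binding was not measured.

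The 5 pools had between 16721055 and 21646378 counts on genes. Charme, the targeted gene, had 810, 183 and 276 counts in the CharmeWT pools and 57 and 79 in the CharmeKO pools, a log2 fold change of -2.49 (SE 0.549, adjusted p = 0.0763, edgeR's quasi-likelihood test). The test used throughout is this one, adjusted by Benjamini-Hochberg over all 14880 genes that reached 10 counts in 2 or more pools. To be called, a gene needed an adjusted p below 0.1 and, in 1 genotype or both, a mean of at least 1 FPKM (fragments per kilobase of exon and per 1000000 counts). CharmeKO pool 2 stood apart: 9 salivary gland genes summed to 24853 CPM (counts per 1000000 of the TMM-scaled library) there, 327 in CharmeKO pool 1 and at most 0.303 in any CharmeWT pool. Fold changes of members that rested on this pool are therefore followed by the value without it. For genes of the further lists that value is given for some. With either CharmeKO pool left out, the spread comes from the CharmeWT pools alone and the remaining CharmeKO pool is assumed to vary like them; 31.7% of all genes were called without CharmeKO pool 2 and 4.33% without CharmeKO pool 1, so single genes are given from those fits by their fold changes.

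All 36 members were detected, and each of them except Timd4 had counts in every pool. Detection does not set them apart, since all 9 B cell genes and all 9 salivary gland genes listed were detected as well. On the FPKM scale, which allows levels to be compared between genes, the complement subunits and the secreted lysozyme led. C1qb stood at 24.5 ± 8.64 FPKM (SD, n = 3) in CharmeWT hearts, Lyz2 at 22.9 ± 4.14, C1qa at 21.3 ± 6.33 and S100a9 at 19.3 ± 7.68. The ranges of these 4 overlapped between pools, although C1qb was above C1qa within every pool. C1qc, Tyrobp, Pf4 and Ctss followed between 14.4 and 10.9 FPKM. The surface receptors were lower, with Csf1r at 3.79 ± 0.594, Mrc1 at 2.02 ± 0.334, Adgre1 at 1.96 ± 0.520 and Cx3cr1 at 1.81 ± 0.311 FPKM. The lowest were Itgam at 0.139, Ccr2 at 0.134, Ly6c2 at 0.0972 and Timd4 at 0.0453 FPKM.

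**Figure D1:**
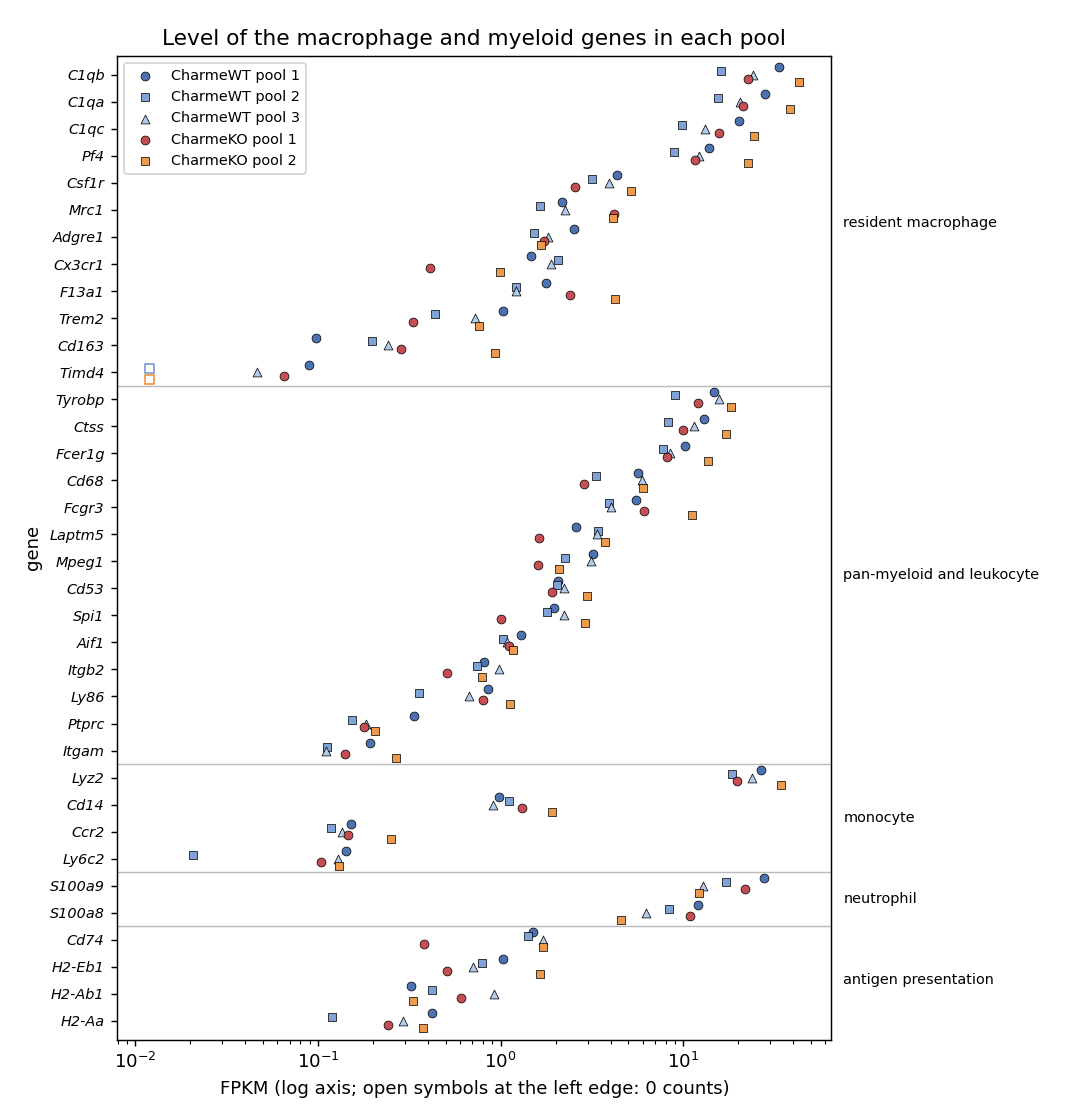
Level of each of the 36 genes (rows, by group and then by mean CharmeWT level) in the 5 pools, in FPKM on a log axis, with 1 symbol per pool and open symbols at the left edge for 0 counts. C1qb, C1qa and Lyz2 lie highest, both Mrc1 symbols of the CharmeKO pools lie at 4.17 and 4.10 FPKM, to the right of the CharmeWT symbols, and those of Cx3cr1 lie to the left of them.

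Timd4, a receptor for dying cells found on long-lived resident macrophages, had 4, 0 and 2 counts in the CharmeWT pools and 2 and 0 in the CharmeKO pools. Ly6c2, a surface protein of inflammatory monocytes, had 8, 1 and 7 counts in CharmeWT pools and 4 and 8 in CharmeKO pools. Neither passed the filter on low counts, so a genotype difference in them was not detectable at this depth, and the other 34 members were tested. A count of 3, the limit that a count of 0 allows, corresponds to between 0.134 and 0.213 CPM in these libraries.

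Comparing the genotypes asks whether the loss of Charme, which acts in cardiomyocytes, was accompanied by a change in the myeloid RNA of the heart. Only Mrc1, the mannose receptor, and F13a1, the coagulation factor XIII A subunit made by resident macrophages, were called, and both rose in CharmeKO hearts. The 14 pan-myeloid genes, none of them called, had log2 fold changes from -0.63 (Mpeg1) to 0.94 (Fcgr3). Of the 34 members tested, 2 were called higher, beside 1.53% of all genes tested, and 0 were called lower, beside 0.524%; in either direction 2.05% of all genes were called. At an unadjusted p under 0.05, 4 members were higher, beside 10.6% of all genes, and 2 lower, beside 8.01%, by the quasi-likelihood test, which in all is 17.6% of the members beside 18.6% of all genes. EdgeR's likelihood ratio test and DESeq2 each called 3 higher (Mrc1, F13a1 and Fcgr3) and 1 lower (Cx3cr1), beside 6.27% and 7.54% of all genes in either direction.

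Across the 34 members 21 had a positive and 13 a negative log2 fold change, with a median of 0.22, against 0.02 over all genes tested. Both CharmeKO pools lay above every CharmeWT pool for 5 members (Mrc1, Cd163, F13a1, Fcgr3 and Cd14), beside 17.8% of all genes. They lay below every CharmeWT pool for 2 members (Cx3cr1 and Mpeg1), beside 18.2% of all genes. For the other 27 the genotypes overlapped. The median log2 fold change was 0.48 over the 11 resident macrophage genes, 0.11 over the 14 pan-myeloid genes, 0.61 over the 3 monocyte genes, -0.22 over the 2 neutrophil genes and -0.06 over the 4 antigen presentation genes.

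**Figure D2:**
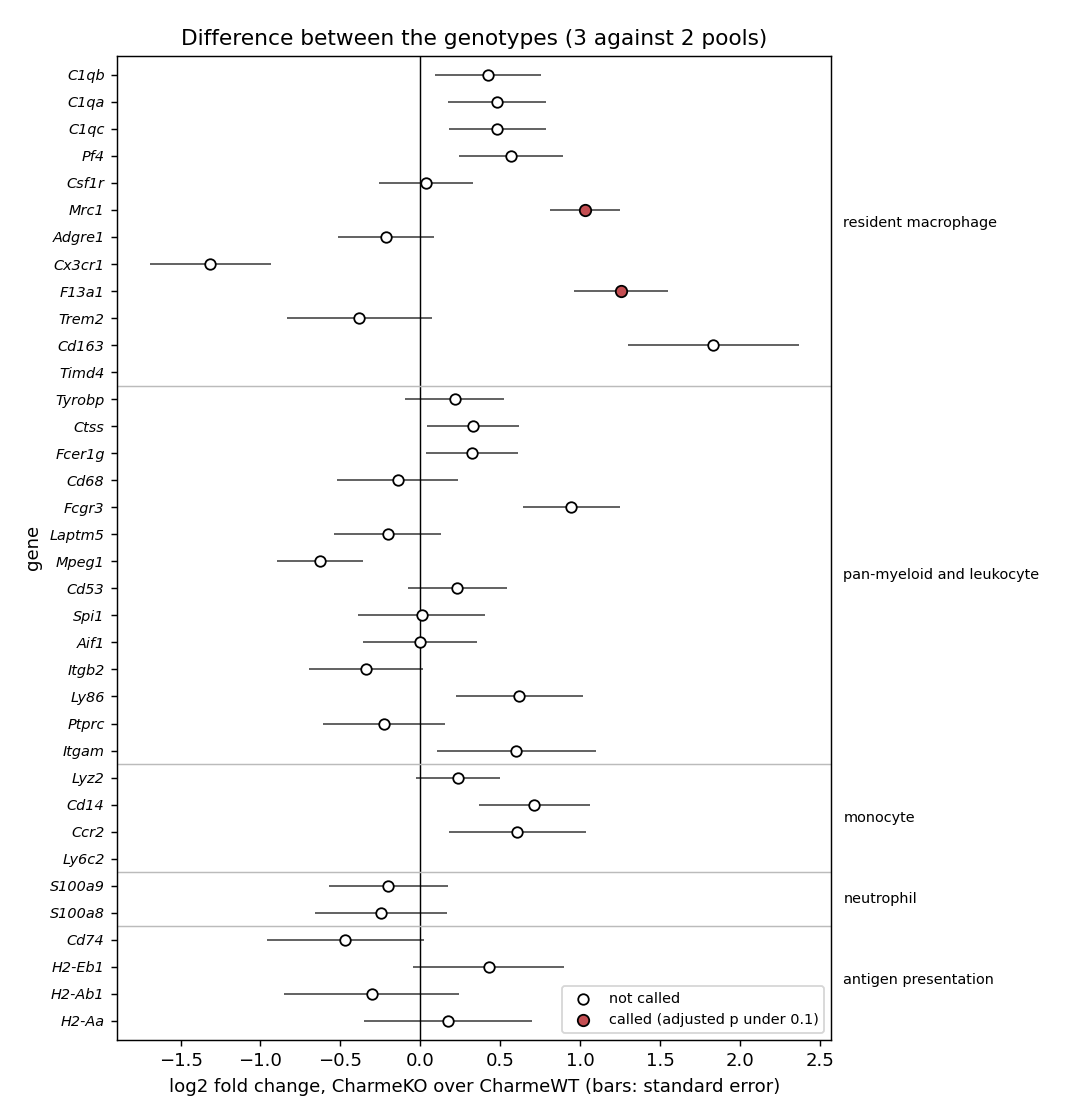
Log2 fold change, CharmeKO over CharmeWT, of the 34 members tested (points) with the standard error of the quasi-likelihood fit (bars), ordered as in the plot of levels; filled points were called. Mrc1 at 1.03 and F13a1 at 1.26 are the 2 called genes, while Cd163 at 1.83 and Cx3cr1 at -1.31 lie farther out with wider bars.

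Mrc1 and F13a1 belong to the 12 resident macrophage genes. Mrc1, which binds mannose-bearing glycoproteins and collagen fragments, had 285, 184 and 283 counts in the CharmeWT pools and 375 and 583 in the CharmeKO pools. Scaled to library size, these were 13.8, 10.4 and 14.3 CPM against 26.6 and 26.1 CPM. On this scale both CharmeKO pools were at nearly the same level and well above the CharmeWT pools. The log2 fold change of Mrc1 was 1.03 (SE 0.219, edgeR adjusted p = 0.0689). Without CharmeKO pool 2 it was 1.04, and without CharmeKO pool 1 it was 1.02. F13a1, whose product crosslinks fibrin and matrix, had 245, 144 and 162 counts in CharmeWT pools and 229 and 639 in CharmeKO pools, or 11.9, 8.15 and 8.19 CPM against 16.2 and 28.6 CPM. Here CharmeKO pool 1 exceeded the highest CharmeWT pool by a smaller margin than CharmeKO pool 2 did. Its log2 fold change was 1.26 (SE 0.293, edgeR adjusted p = 0.0883), 0.77 without CharmeKO pool 2 and 1.60 without CharmeKO pool 1. Leaving out any 1 of the 3 CharmeWT pools ended both calls, with adjusted p from 0.200 to 0.308 for Mrc1 and from 0.175 to 0.426 for F13a1 in edgeR, while the fold changes stayed between 0.90 and 1.46. When the fit carried the replicate number as a block, Mrc1 was still called (adjusted p = 0.0960) and F13a1 was not (0.188).

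Cd163, the receptor that takes up haemoglobin-haptoglobin complexes, had 11, 19 and 26 counts in CharmeWT pools and 22 and 114 in CharmeKO pools, or 0.534, 1.08 and 1.32 CPM against 1.56 and 5.11 CPM. The pools did not overlap, but CharmeKO pool 1 was close to the CharmeWT pools and CharmeKO pool 2 carried most of the difference. Its log2 fold change of 1.83 (SE 0.536, edgeR adjusted p = 0.148) did not pass, and it was 0.68 without CharmeKO pool 2 and 2.40 without CharmeKO pool 1. By the likelihood ratio test and DESeq2 its adjusted p was 0.0528 and 0.0653. Its mean level, 0.179 FPKM in CharmeWT and 0.611 FPKM in CharmeKO hearts, was under the minimum of 1 that a call required by any of these tests. Erythroid RNA was also higher in CharmeKO hearts, with 11 globin and other erythroid genes summing to between 879 and 1263 CPM in CharmeWT pools and to 2305 and 1630 CPM in CharmeKO pools 1 and 2. The part of red cell content in the Cd163 difference was not tested.

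Cx3cr1, the fractalkine receptor of resident macrophages and patrolling monocytes, differed in the opposite direction. It had 136, 165 and 168 counts in CharmeWT pools and 26 and 100 in CharmeKO pools, or 6.60, 9.34 and 8.50 CPM against 1.84 and 4.48 CPM. Both CharmeKO pools were below every CharmeWT pool, CharmeKO pool 1 by the larger margin. The log2 fold change was -1.31 (SE 0.378, edgeR adjusted p = 0.145), which did not pass, although the likelihood ratio test (0.0392) and DESeq2 (0.0241) called it. Without CharmeKO pool 2 it was -2.14, and without CharmeKO pool 1 it was the smallest of its alternatives at -0.86. In GENCODE M21 the annotated span of Cx3cr1 also covers Csrnp1, Gorasp1 and Xirp1 on the same strand, so its count is uncertain to the extent that reads there were set aside as ambiguous.

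Of the 11 resident macrophage genes tested, the other 7 overlapped between the genotypes: Csf1r, Adgre1, Trem2, Pf4 and the 3 C1q genes. Csf1r had 24.9, 18.2 and 22.6 CPM in CharmeWT pools and 14.7 and 29.9 CPM in CharmeKO pools, so CharmeKO pool 1 was the lowest and CharmeKO pool 2 the highest of all 5; its log2 fold change was 0.03 (SE 0.295), and -0.58 without CharmeKO pool 2. Adgre1, which encodes the F4/80 antigen, had 8.21, 4.92 and 5.92 CPM against 5.60 and 5.38 CPM, with both CharmeKO pools inside the CharmeWT range. Trem2, a lipid-sensing receptor, had 5.10, 2.15 and 3.59 CPM against 1.63 and 3.77 CPM, with a log2 fold change of -0.38 that became -1.17 without CharmeKO pool 2. Pf4, a platelet chemokine that neonatal cardiac macrophages also express, had a log2 fold change of 0.57 (SE 0.324, edgeR adjusted p = 0.368), which was -0.02 without CharmeKO pool 2 and 0.96 without CharmeKO pool 1.

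The 3 subunits of complement C1q, which tags dying cells and debris, are encoded side by side on GRCm38 chromosome 4 (chr4:136880129-136898803 from C1qb to C1qa) and moved together from pool to pool. C1qa had 29.2, 16.1 and 21.2 CPM in CharmeWT pools and 22.0 and 39.8 CPM in CharmeKO pools. CharmeWT pool 2 was lowest and CharmeKO pool 2 highest for all 3 genes. The ratio of C1qa to C1qb counts stayed between 0.806 and 0.925 in CharmeWT pools and was 0.893 and 0.850 in CharmeKO pools. Their log2 fold changes were 0.48, 0.42 and 0.48 for C1qa, C1qb and C1qc, with edgeR adjusted p of 0.414, 0.507 and 0.412; without CharmeKO pool 2 these were -0.03, -0.13 and 0.12.

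The composition of myeloid RNA within a pool was described by setting each gene against the summed CPM of the 14 pan-myeloid genes of the same pool, leaving out the gene itself where it was among them. That sum was 100.3, 74.5 and 95.1 CPM in CharmeWT pools and 72.1 and 124 CPM in CharmeKO pools. Mrc1 amounted to 13.8%, 13.97% and 15.1% of it in CharmeWT pools and to 36.8% and 21.1% in CharmeKO pools. F13a1 amounted to 11.9%, 10.9% and 8.62% against 22.5% and 23.1%. On this scale both CharmeKO pools exceeded every CharmeWT pool for either gene, CharmeKO pool 1 being the higher for Mrc1. The same held for Cd163, Pf4, C1qa, Fcgr3, Fcer1g, Ly86, Ctss, Itgam, Ccr2, Lyz2 and Cd14, for some of them by narrow margins. The share of all genes that separates in this way was not computed. The other C1q genes overlapped on this scale. C1qb was at 36.1% in CharmeWT pool 1 and 34.1% in CharmeKO pool 1, and C1qc at 39.0% in CharmeWT pool 1 and 38.1% in CharmeKO pool 2. Cx3cr1 went from 6.58%, 12.5% and 8.94% to 2.55% and 3.62%. Mpeg1, Itgb2 and Cd74 likewise lay below every CharmeWT pool in both CharmeKO pools. The count of Mrc1 per count of Cx3cr1 was 2.10, 1.12 and 1.68 in CharmeWT pools and 14.4 and 5.83 in CharmeKO pools. This pair joins a gene called higher with the member of lowest log2 fold change. The gap in their ratio therefore follows from that choice and is no test.

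Lyz2 was the steadiest by this measure, at 34.8%, 32.5% and 33.0% of the sum in CharmeWT pools and 36.1% and 36.2% in CharmeKO pools. Csf1r was at 24.8%, 24.4% and 23.8% against 20.4% and 24.1%, so that CharmeKO pool 1 was lowest and CharmeKO pool 2 lay within the CharmeWT range. Fcgr3 was at 10.6%, 10.03% and 7.92% against 17.1% and 18.4%, above every CharmeWT pool. Mpeg1, which encodes the pore-forming perforin-2, was at 16.1%, 15.0% and 16.7% against 10.7% and 7.88%, below every CharmeWT pool. These shares are descriptions of 5 pools and were not tested; with 3 pools against 2 the smallest exact two-sided permutation p is 0.1.

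**Figure D3:**
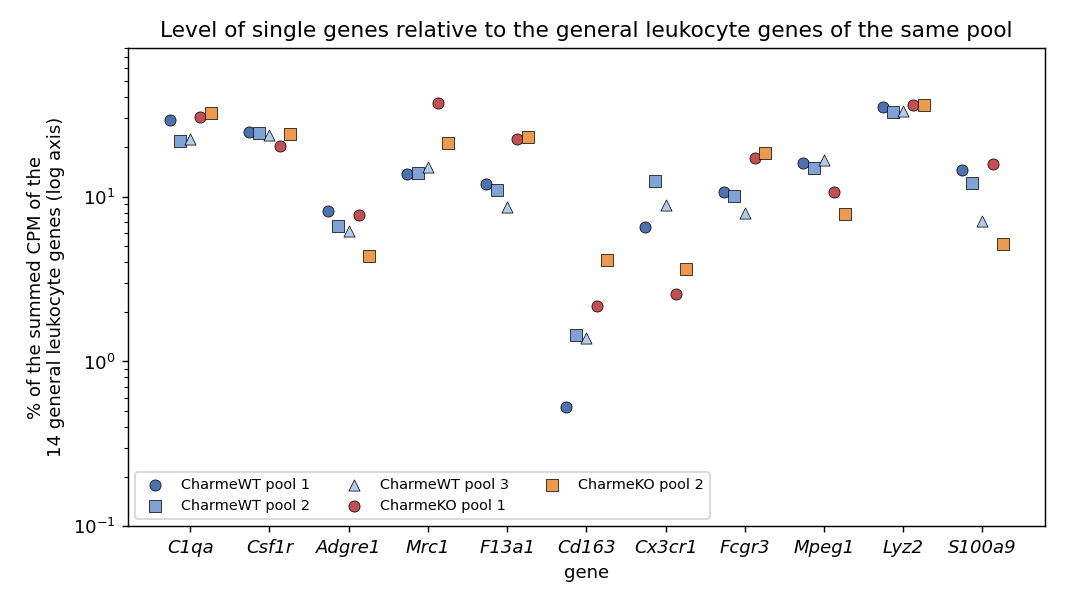
CPM of 11 members as a percentage of the summed CPM of the 14 pan-myeloid genes of the same pool (log axis; the gene itself left out of the sum where it is among them), with 1 symbol per pool. Mrc1, F13a1, Fcgr3, Cd163 and C1qa lie higher in both CharmeKO pools, and Cx3cr1 and Mpeg1 lower in both. C1qb and C1qc, which are not plotted, overlapped between the genotypes. Lyz2 stays between 32.5% and 36.2% in all 5, with both CharmeKO pools highest.

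The pan-myeloid genes are found across myeloid cells or all leukocytes. None of the 14 was called in either direction, beside 2.05% of all genes. At an unadjusted p under 0.05 by the quasi-likelihood test 1 was higher and 1 lower (14.3% of the list, beside 18.6% of all genes). The likelihood ratio test and DESeq2 each called 1 of them, Fcgr3. Fcgr3, a low-affinity receptor for immunoglobulin G, had 9.62, 6.79 and 6.98 CPM in CharmeWT pools and 10.6 and 19.3 CPM in CharmeKO pools. The genotypes did not overlap, but CharmeKO pool 1 was only slightly above CharmeWT pool 1. Its log2 fold change was 0.94 (SE 0.303, edgeR adjusted p = 0.168), 1.30 without CharmeKO pool 1 and 0.43 without CharmeKO pool 2. Fcgr3 shares long stretches of sequence with other Fc receptor genes, and reads that map to several places are not counted, so its level is uncertain.

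Mpeg1 had 13.9, 9.74 and 13.6 CPM in CharmeWT pools and 6.94 and 9.05 CPM in CharmeKO pools. Both CharmeKO pools were lower, CharmeKO pool 2 by a narrow margin to CharmeWT pool 2, and the log2 fold change of -0.63 (SE 0.269, edgeR adjusted p = 0.256) did not pass. The remaining 12 genes overlapped between the genotypes. Spi1 had 5.29, 4.81 and 6.02 CPM against 2.69 and 7.84 CPM, which placed the CharmeKO pools on both sides of the CharmeWT pools, and its log2 fold change of 0.01 (SE 0.397) became -1.01 without CharmeKO pool 2 and 0.54 without CharmeKO pool 1. Laptm5, a lysosomal membrane protein of leukocytes, had 9.76, 12.9 and 12.8 CPM against 6.16 and 14.1 CPM and showed the same arrangement, at -0.20 and, without CharmeKO pool 2, -0.94. Ly86, the partner of the receptor-like protein Cd180, had 64, 23 and 48 counts against 41 and 91 and a log2 fold change of 0.62 (SE 0.395, edgeR adjusted p = 0.415), which was 0.32 without CharmeKO pool 2. Cd53, a tetraspanin of leukocytes, had 3.59, 3.57 and 3.89 CPM against 3.33 and 5.20 CPM, so that the CharmeKO pools again lay on both sides, at a log2 fold change of 0.23 (SE 0.309), or -0.15 without CharmeKO pool 2. Aif1, a calcium-binding protein of macrophages, was at -0.0008. The 2 adaptor chains that signal for Fc and Trem receptors, Fcer1g and Tyrobp, had log2 fold changes of 0.32 and 0.22, and the lysosomal genes Ctss and Cd68 had 0.33 and -0.14. Ptprc, the pan-leukocyte antigen CD45, was at -0.23, and the beta 2 integrin chains Itgb2 and Itgam were at -0.34 and 0.60. Without CharmeKO pool 2 these were -0.11 for Fcer1g, -0.14 for Tyrobp, -0.14 for Ctss, -0.81 for Cd68, -0.36 for Ptprc, -0.73 for Itgb2 and -0.0011 for Itgam, so that all 7 were below 0.

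The RNA of recruited monocytes was sparse. Ccr2, the chemokine receptor that brings monocytes out of the marrow, had 21, 14 and 18 counts in CharmeWT pools and 14 and 38 in CharmeKO pools, or 1.02, 0.792 and 0.910 CPM against 0.992 and 1.70 CPM. CharmeKO pool 1 lay within the CharmeWT range and CharmeKO pool 2 above it, and the log2 fold change was 0.61 (SE 0.429, edgeR adjusted p = 0.459), or 0.11 without CharmeKO pool 2. Cd14, the co-receptor for bacterial lipopolysaccharide, had 1.70, 1.92 and 1.57 CPM against 2.27 and 3.32 CPM. Both CharmeKO pools exceeded the CharmeWT pools, with a log2 fold change of 0.71 (SE 0.347, edgeR adjusted p = 0.298), which did not pass and was 0.39 without CharmeKO pool 2. Lyz2, which macrophages express as well and which has a near-identical copy, Lyz1, was at 0.24 (SE 0.261, edgeR adjusted p = 0.644), or -0.22 without CharmeKO pool 2. None of the 3 monocyte genes tested was called, nor was any at an unadjusted p under 0.05, by the likelihood ratio test or by DESeq2.

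The 2 neutrophil genes encode the subunits of calprotectin, a zinc-binding complex that fills the neutrophil cytosol, and neighbour each other on GRCm38 chromosome 3 (chr3:90668978-90695721). S100a8 had 173, 103 and 86 counts in CharmeWT pools and 106 and 71 in CharmeKO pools, or 8.40, 5.83 and 4.35 CPM against 7.51 and 3.18 CPM. S100a9 had 14.5, 9.0 and 6.73 CPM against 11.4 and 6.37 CPM. The ranges overlapped for both genes, and CharmeWT pool 1 was the highest and CharmeKO pool 2 the lowest. Log2 fold changes were -0.25 (SE 0.412) and -0.20 (SE 0.372), with edgeR adjusted p of 0.769 and 0.796. Without CharmeWT pool 1 they were positive, as they were without CharmeKO pool 2: S100a8 reached 0.27 and S100a9 0.17 at the highest. The S100a8 count per S100a9 count ran from 0.579 to 0.648 in CharmeWT pools and was 0.658 and 0.50 in CharmeKO pools.

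Class II antigen presentation genes had few counts, and none was called or reached an unadjusted p under 0.05 by the quasi-likelihood test, nor was any called by the likelihood ratio test or DESeq2. Cd74, the invariant chain that chaperones class II molecules, had 52, 42 and 57 counts in CharmeWT pools, 9 in CharmeKO pool 1 and 64 in CharmeKO pool 2. That is 2.53, 2.38 and 2.88 CPM against 0.638 and 2.87 CPM, so that only CharmeKO pool 1 stood below the others. Its log2 fold change of -0.47 (SE 0.493, edgeR adjusted p = 0.627) became -2.02 without CharmeKO pool 2 and 0.14 without CharmeKO pool 1. H2-Eb1, a class II beta chain, had 41, 27 and 27 counts against 14 and 71, with the CharmeKO pools again on both sides of the CharmeWT pools, and its log2 fold change of 0.43 was -0.72 without CharmeKO pool 2. H2-Aa had 33, 8 and 22 counts against 13 and 32, and H2-Ab1 17, 19 and 47 against 22 and 19. Both of these overlapped fully between the genotypes, with log2 fold changes of 0.17 and -0.30 that became -0.24 and 0.12 without CharmeKO pool 2. The sign of H2-Ab1 also turned with the replicate block (0.29).

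The 2 CharmeKO pools were compared with each other to describe how far myeloid RNA varied within the genotype. Most members were higher in CharmeKO pool 2, the exceptions being the neutrophil pair, H2-Ab1, Mrc1 and Adgre1. The widest gap was that of Cd74, followed by Cd163, H2-Eb1, Spi1 and Cx3cr1. With 1 pool on each side there is no test, and the 95% intervals given are exact binomial ones that cover counting error only, since the reads carry no molecular identifiers. CharmeKO pool 2 was above CharmeKO pool 1 for 29 of the 34 members, beside 50.5% of all genes tested. It was at least 2-fold above for 9 members, beside 8.39% of all genes: Csf1r, Cd163, Cx3cr1, Trem2, Cd68, Laptm5, Spi1, Cd74 and H2-Eb1.

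The ratio of CharmeKO pool 2 to CharmeKO pool 1 was 4.50 for Cd74 (95% interval 2.23 to 10.3), where the largest ratio between 2 CharmeWT pools was 1.21. It was 3.28 for Cd163 (2.06 to 5.44), against 2.46 between CharmeWT pools. It was 2.91 for Spi1 (2.04 to 4.26), against 1.25 between CharmeWT pools, and 3.21 for H2-Eb1 (1.79 to 6.17), against 1.46. For Cx3cr1 it was 2.43 (1.57 to 3.90), against 1.41, and for Csf1r, the smallest of the 9, 2.03 (1.73 to 2.38), against 1.37. The gap between the CharmeKO pools was wider than any between CharmeWT pools for 8 of these 9 genes, Trem2 being the exception. These 9 were picked for a wide gap between the CharmeKO pools, so this count is no test. The share of all genes with a wider gap was not computed. CharmeKO pools held 3 hearts and CharmeWT pools 9, and the part of pool size in the gaps was not tested. The C1q genes stood at 1.81 for C1qa, 1.90 for C1qb and 1.55 for C1qc, where CharmeWT pools reached 1.81, 2.08 and 2.06, so that for them the CharmeKO gap was equal to or narrower than the CharmeWT one at this precision. Trem2, at 2.31, was within the 2.37 seen between CharmeWT pools.

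On the TMM scale Mrc1 was equal in the 2 CharmeKO pools within counting error, at a ratio of 0.984 (95% interval 0.863 to 1.12). So was Adgre1, at 0.961 (0.718 to 1.29). The TMM factors were 0.845 for CharmeKO pool 1 and 1.03 for CharmeKO pool 2. Both ratios depend on these factors and would be higher on total counts alone. Per Csf1r count, Mrc1 was at 0.556, 0.573 and 0.633 in CharmeWT pools, 1.80 in CharmeKO pool 1 and 0.874 in CharmeKO pool 2. F13a1 per Csf1r count was at 0.478, 0.449 and 0.362 in CharmeWT pools and at 1.10 and 0.958 in CharmeKO pools. Both ratios were higher in either CharmeKO pool than in every CharmeWT pool. Cx3cr1 per Csf1r count, at 0.125 and 0.150 in CharmeKO pools, lay below the 0.265, 0.514 and 0.376 of CharmeWT pools. The neutrophil genes ran the other way: S100a8 was at a ratio of 0.424 (0.309 to 0.578) and S100a9 at 0.558 (0.442 to 0.704), where CharmeWT pools differed by up to 1.93 and 2.16 times.

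**Figure D4:**
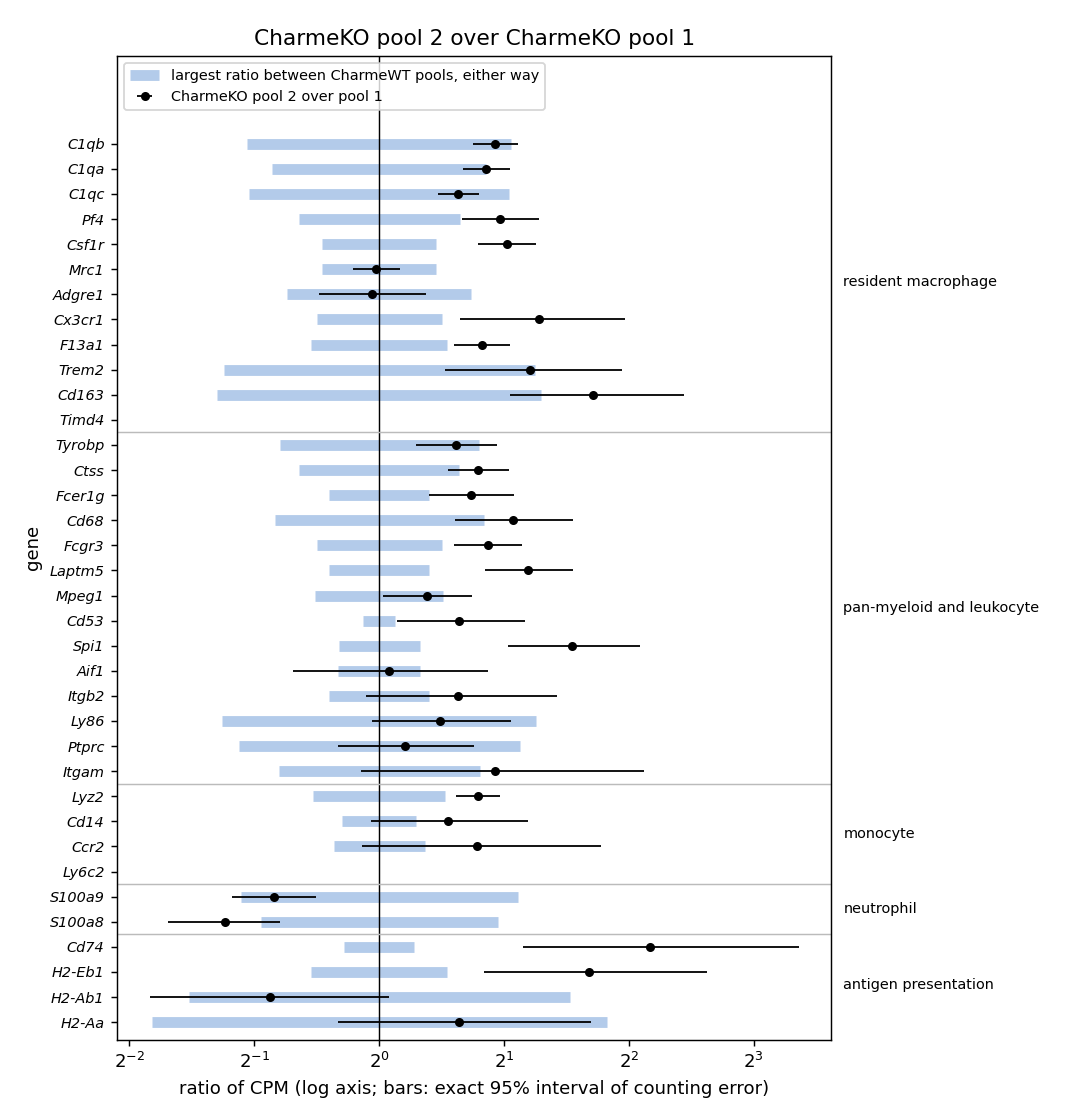
Ratio of the CPM in CharmeKO pool 2 to that in CharmeKO pool 1 for the 34 members tested (points, with the exact 95% interval of counting error as bars, on a log axis). Blue bands span the largest ratio between any 2 CharmeWT pools, either way up. Points for 29 members lie to the right of 1, Cd74 at 4.50 farthest, and S100a8 at 0.424 lies farthest to the left.

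Relative to the mean of the CharmeWT pools, the median log2 difference of the resident macrophage genes was 0.36, -0.33 and 0.06 in CharmeWT pools, 0.02 in CharmeKO pool 1 and 0.87 in CharmeKO pool 2. In the monocyte genes CharmeKO pool 2 was likewise the highest and CharmeWT pool 2 the lowest, with 0.16, -0.17 and 0.01 in CharmeWT pools and 0.12 and 0.84 in CharmeKO pools. Pan-myeloid genes were at -0.12 and 0.50 in the CharmeKO pools, and antigen presentation genes at -0.34 and 0.35. For all 4 groups, then, CharmeKO pool 1 lay within or below the CharmeWT range and CharmeKO pool 2 above every CharmeWT pool. The neutrophil genes were at 0.29 in CharmeKO pool 1 and -0.73 in CharmeKO pool 2, below the lowest CharmeWT pool at -0.48. Over all genes tested the medians lay between 0.0020 and 0.011 in every pool.

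**Figure D5:**
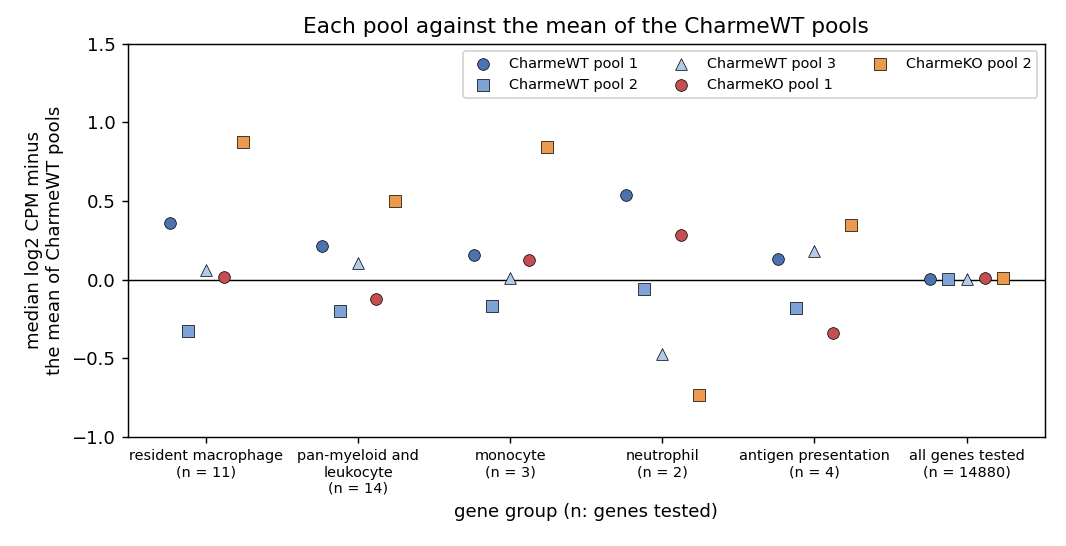
Median difference in log2 CPM from the mean of the 3 CharmeWT pools, for each group of members and for all 14880 genes tested, with 1 symbol per pool. CharmeKO pool 2 is the highest pool for 4 groups, at 0.87 for resident macrophage genes, and the lowest for the neutrophil genes at -0.73, while all genes stay at about 0.

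Without CharmeKO pool 2 the median log2 fold change of the resident macrophage genes was -0.03, and without CharmeKO pool 1 it was 0.81. For the monocyte genes these medians were 0.11 and 0.90, and for the neutrophil genes 0.22 and -0.82. When CharmeKO pool 2 was left out, 7 members were called, Mrc1 and F13a1 higher and Cx3cr1, Laptm5, Mpeg1, Spi1 and Cd74 lower, while 31.7% of all genes were called in that setting. When CharmeKO pool 1 was left out, 4 members were called, all higher (Mrc1, F13a1, Pf4 and Fcgr3), beside 4.33% of all genes. Each of these calls compares a single CharmeKO pool with the CharmeWT pools.

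Other genes of the same cells and pathways were taken from 9 further lists. Of the 119 genes tested there 3 were called, which is 2.52% beside 2.05% of all genes, and 17 had an unadjusted p under 0.05, which is 14.3% beside 18.6%. Among 27 other resident macrophage genes 23 were tested and 0 were called, with 3 higher and 0 lower at an unadjusted p under 0.05 by the quasi-likelihood test, 1 called by the likelihood ratio test (Folr2) and 0 by DESeq2. Lyve1, a hyaluronan receptor of perivascular macrophages that lymphatic endothelium also carries, had 400, 328 and 427 counts in CharmeWT pools and 308 and 929 in CharmeKO pools, and its log2 fold change was 0.68 (SE 0.266, edgeR adjusted p = 0.227), or 0.13 without CharmeKO pool 2. Lgmn, a lysosomal protease, was at -0.05. Of the other myeloid growth and transcription factors, 13 were tested and 0 called, with 2 higher and 2 lower at an unadjusted p under 0.05; the likelihood ratio test called 2 and DESeq2 3. Cebpb was at 1.01, Nr4a1 at 0.23 and Cebpa, which fat cells also express, at 2.81 (SE 0.695, edgeR adjusted p = 0.103). Cebpa had 96, 65 and 108 counts in CharmeWT pools, 75 in CharmeKO pool 1 and 1312 in CharmeKO pool 2, so CharmeKO pool 2 alone stood out. Without that pool Cebpb was at 0.10 and Cebpa at 0.19. Irf8, a transcription factor that specifies monocytes and macrophages, is named here after its values were seen: it had 308, 340 and 306 counts against 132 and 230. Both CharmeKO pools were below every CharmeWT pool after scaling, with a log2 fold change of -0.75 (SE 0.234, edgeR adjusted p = 0.163), which did not pass, although both the likelihood ratio test and DESeq2 called it.

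Of 13 chemokine and chemokine receptor genes tested, 11 had a positive and 2 a negative log2 fold change. The 1 called was Cxcl12, the stromal chemokine that retains haematopoietic cells, and it was lower in CharmeKO hearts. It had 2597, 2283 and 2848 counts in CharmeWT pools and 1055 and 1882 in CharmeKO pools. Both CharmeKO pools were below the CharmeWT pools after scaling, with a log2 fold change of -0.74 (SE 0.173, edgeR adjusted p = 0.0883). Ccl2, the ligand of Ccr2, was at 0.80 (SE 0.513) and Cxcl16 at 0.15 (SE 0.250), neither called. Without CharmeKO pool 2 Ccl2 was at 1.19 and Cxcl16 at 0.01. Among 13 other complement genes tested 11 had a positive and 2 a negative log2 fold change, and 1 was called. This was Cfd, the protease adipsin, which fat tissue secretes. It had 2, 0 and 1 counts in CharmeWT pools and 35 and 1663 in CharmeKO pools (edgeR adjusted p = 0.0157). With either CharmeKO pool left out, Cfd no longer reached 10 counts in 2 pools and was not tested. Cd59a and Serping1, which restrain complement, were at -0.0039 and 0.34.

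Among 12 other neutrophil genes tested 1 was called, Pglyrp1, an antibacterial granule protein, with 21, 14 and 17 counts in CharmeWT pools, 13 in CharmeKO pool 1 and 714 in CharmeKO pool 2. Its log2 fold change of 4.22 (SE 0.980, edgeR adjusted p = 0.0877) rested on CharmeKO pool 2 (0.03 without it), where S100a8 and S100a9 were lowest. Ngp and Stfa2l1, granule and cytosolic proteins of maturing neutrophils, were at -0.63 and -0.53 and were not called. None was called among 7 other monocyte genes, 8 other class II and dendritic cell genes, 9 class I genes or 21 leukocyte signalling and NADPH oxidase genes tested; at an unadjusted p under 0.05 these lists had 0, 0, 1 and 2 genes, and the likelihood ratio test and DESeq2 each called 0, 0, 1 (B2m) and 2 (Syk and Arhgdib). B2m, the light chain of class I molecules, had 2367, 1770 and 1834 counts in CharmeWT pools and 2871 and 3218 in CharmeKO pools, and its log2 fold change was 0.76 (SE 0.197, edgeR adjusted p = 0.117). H2-D1 and H2-K1, the heavy chains, were at -0.15 and 0.31, or -0.84 and -0.20 without CharmeKO pool 2. Plac8 and Itgal of the monocyte list were at 0.92 and -0.35, and Cyba and Lyn of the signalling list at -0.22 and 0.13. Without CharmeKO pool 2 Plac8 was at 0.22 and Itgal at -0.46.

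Markers of other cell types were read beside these results, since several moved with CharmeKO pool 2. Of 9 salivary gland genes 5 were tested and all 5 were called higher in CharmeKO hearts, and Bpifa2, Smgc and Prol1 were at 0 in every CharmeWT pool. Adipose genes, 5 of 6 called higher, summed to between 28.4 and 40.9 CPM in CharmeWT pools, 70.6 CPM in CharmeKO pool 1 and 1064 CPM in CharmeKO pool 2. Mast cell genes, 0 of 6 called, summed to between 43.0 and 77.5 CPM in CharmeWT pools and to 63.1 and 149 CPM in CharmeKO pools. Salivary gland, fat and mast cell RNA were thus all highest in the pool where most members were highest, and their part in the difference between the CharmeKO pools was not tested. T cell and thymus genes, at 6.74 to 9.56 CPM in CharmeWT pools and 4.53 and 6.81 CPM in CharmeKO pools, and B cell genes, at 1.81 to 3.24 and 1.20 and 1.93 CPM, did not exceed their CharmeWT range. Of the mitosis genes 7 of 7 were called higher, with sums of 286 to 421 CPM in CharmeWT pools and 1526 and 856 CPM in CharmeKO pools, highest in CharmeKO pool 1. Called genes numbered 3 of 9 in the erythroid, 1 of 15 in the cardiomyocyte, 0 of 10 in the endothelial, 0 of 9 in the fibroblast and 0 of 2 in the lung epithelium list; the likelihood ratio test and DESeq2 each called 1 endothelial, 1 fibroblast and 1 mast cell gene.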

How the data were processed

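Hearts were pooled by genotype, and 1 polyA-selected, strand-specific library was made per pool. Per the labels and the study's methods, the authors trimmed paired reads of 150 nucleotides with Cutadapt and Trimmomatic, discarded those under 35 nucleotides, and used STAR to align the rest to GRCm38 and to count fragments on Ensembl release 87 genes with the reverse-strand setting. The deposited counts are raw whole numbers, and Charme is listed by name. Reads that map to several places or to overlapping genes of 1 strand are not counted in this way, which can lower close paralogs. The deposited FPKM table was not used here: FPKM was computed from the counts with exon lengths of GENCODE M21, and 23 genes without a length, Charme among them, were given 1000 bases. Without molecular identifiers in the reads, intervals and floors reflect counting error only.

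Genes that reached 10 counts in 2 or more pools were scaled by TMM and tested with edgeR 4.0.16 (R 4.3.3, limma 3.58.1), quasi-likelihood fit with legacy set to FALSE, for genotype over all 5 pools, with Benjamini-Hochberg adjustment. A call needed an adjusted p below 0.1 and, in 1 genotype or both, a mean of 1 FPKM or more. The study's methods use the same filter, scaling and thresholds with the likelihood ratio test, which was an alternative, as were DESeq2 1.42.0, the legacy quasi-likelihood fit, RLE scaling, 2 other low-count filters, calls without the FPKM minimum, a stricter adjusted p of 0.05, a block for the replicate number, splines per pool on gene length and GC content, and leaving out each pool. The main fit was first tested on simulated data with the same dispersion in every pool and no outlying pool. The alternatives were not tested in this way. Pools are separate pools of littermates, so p-values measure the spread between pools.

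The members and lists were chosen with earlier results of these data known. Named were every member, Charme, the 3 most abundant genes of each further list and any called there; genes named after their values were seen are marked, and not every gene the rule selects is named. Motif letters were also chosen after the values had been seen. Promoter windows came from RefSeq on GRCm38.p6. Of the 49671 deposited genes 49411 were matched to GENCODE M21, as were all 36 members.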

Additional observations from a re-analysis of the deposited data

How the results depend on the processing

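These are 5 pools with few hearts in the CharmeKO pools, many members have under 100 counts, and the calls depend on single pools. Calls among the 34 members numbered 2, or 4 with the likelihood ratio test, 4 with DESeq2, 1 with the replicate block, 1 with the length and GC correction, 0 with both together and 0 at an adjusted p under 0.05 (edgeR; 6 members had an unadjusted p under 0.05); leaving out 1 pool gave 0 without any of the CharmeWT pools in turn (5 or 6 at an unadjusted p under 0.05), 4 without CharmeKO pool 1 and 7 without CharmeKO pool 2, where the lone CharmeKO pool is assumed to vary like the CharmeWT pools. Over all genes the 305 calls became 933, 1122 and 111 with the likelihood ratio test, DESeq2 and the stricter threshold, 29 with the block and correction together, and 2, 187, 0, 639 and 4607 without CharmeWT pools 1 to 3 and CharmeKO pools 1 and 2 (edgeR; at the 0, 1315 genes had an unadjusted p under 0.05). Charme (-2.49) was not called at the stricter threshold, nor with the block and correction together (-2.42, adjusted p = 0.217), and ran from -2.82 to -1.68 with 1 pool left out, not called without CharmeWT pool 1 or 3. Mrc1 kept its sign in 16 of 16 alternatives and was called in 11, and F13a1 kept it in 16 and was called in 9. The stricter threshold and the dropped FPKM minimum reuse the main fit, so no sign could turn there. Medians ran, with 1 pool left out, from -0.03 to 0.81 for resident macrophage, -0.15 to 0.49 for pan-myeloid, 0.11 to 0.90 for monocyte, -0.82 to 0.22 for neutrophil and -0.48 to 0.28 for antigen presentation genes; the block took the antigen presentation median from -0.06 to 0.23, the correction took the neutrophil median from -0.22 to -0.67 and the pan-myeloid one from 0.11 to -0.05, and with both together the monocyte median was 0.21 and the neutrophil one -0.80. Signs turned, all without a call, for Spi1 by the likelihood ratio test (-0.014), DESeq2 (-0.012), the legacy fit (-0.0089), no filter (-0.016) and the block (-0.063); for Aif1 by DESeq2 (0.00063), RLE (0.00081) and filterByExpr (0.00025); for Csf1r (-0.0096) and H2-Ab1 (0.29) with the block; for Ctss (-0.00078), Cd53 (-0.28) and Lyz2 (-0.021) with the length and GC correction; and for Cd53 (-0.32) and H2-Ab1 (0.42) with both. Leaving out 1 pool turned the sign of 23 members: C1qa -0.026 to 0.84, C1qb -0.13 to 0.81, Csf1r -0.58 to 0.45, Adgre1 -0.37 to 0.018, Trem2 -1.17 to 0.044, Pf4 -0.020 to 0.96, Cd68 -0.81 to 0.27, Fcer1g -0.11 to 0.63, Tyrobp -0.14 to 0.48, Ctss -0.14 to 0.66, Ptprc -0.43 to 0.19, Itgam -0.0011 to 0.93, Laptm5 -0.94 to 0.26, Aif1 -0.065 to 0.11, Cd53 -0.15 to 0.50, Spi1 -1.01 to 0.54, Lyz2 -0.22 to 0.57, S100a8 -0.96 to 0.27, S100a9 -0.67 to 0.17, Cd74 -2.02 to 0.14, H2-Aa -0.24 to 0.60, H2-Ab1 -0.74 to 0.30 and H2-Eb1 -0.72 to 0.96. Of these turned signs only that of Spi1 without CharmeKO pool 2 was called. The replicate numbers are shared labels with no stated pairing: pool deviations correlated at 0.137 for number 1 and 0.0778 for number 2 between the genotypes. The fit with the replicate block called 210 genes. The cause of these changes was not tested. Groups of 3 and 2 pools are too small for a test of outlying pools.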
